A study of Mus musculus with 2 samples.

Results

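The genes of the mouse major histocompatibility complex (MHC), named H2, were examined with 6 genes that act with them: B2m, Tap1, Tap2, Tapbp, Cd74 and Ciita. They are every row of the deposited table whose gene name starts with H2- or is one of those 6. This gave 48 of 23283 rows: 10 class II genes, 2 classical class I genes, 28 non-classical class I rows, the 6 partner genes and 2 rows that share the H2 name but encode no antigen-presenting protein. RNA had been sequenced from perfused livers of male C57Bl/6 mice aged 6 months, in 2 groups. The first group was Akt1F/F;Akt2-/-;Alb-Cre and the second, its control, was Akt1F/F;Akt2-/-. By these labels all mice of both groups were Akt2-null and carried floxed Akt1, and the Cre recombinase, driven by the albumin promoter, targets Akt1 in hepatocytes. Akt1 and Akt2 encode kinases of insulin and growth factor signalling. The mRNA of 4 livers was pooled into 1 library per group, so no value below has an error between mice, no difference has a replicate check, and no test was possible.

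Class I molecules are made by nearly all nucleated cells. Their heavy chain pairs with beta-2-microglobulin, is filled in the endoplasmic reticulum with peptides that the TAP transporter brings in from the cytosol, and is read by CD8 T cells. Class II molecules pair an alpha with a beta chain, travel with the invariant chain Cd74, take up peptides in endosomes and are read by CD4 T cells. In liver they are made mainly by Kupffer cells, dendritic cells and B cells, and their transcription depends on the coactivator encoded by Ciita, which acts through factors bound to the X and Y boxes of class II promoters.

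Matches to short letter patterns of the X and Y boxes can be read in the promoters themselves. The 250 bases upstream of the annotated start are shown for 3 class II genes that were more than 2-fold higher in the Alb-Cre library, H2-Aa (chr17:34287824-34288073, minus strand), H2-Eb1 (chr17:34305617-34305866, plus strand) and H2-DMb1 (chr17:34152941-34153190, plus strand). For contrast, 2 class I genes that were not are shown, H2-D1 (chr17:35262844-35263093, plus strand) and H2-Q10 (chr17:35469839-35470088, plus strand). Sequences are from RefSeq on GRCm38.p6 (mm10), 5′ to 3′ on the gene's strand. Capitals mark every match, on either strand, to ACNGATG, a core of the X box, or ATTGG, the Y box, which reads CCAAT on the other strand.
H2-Aa: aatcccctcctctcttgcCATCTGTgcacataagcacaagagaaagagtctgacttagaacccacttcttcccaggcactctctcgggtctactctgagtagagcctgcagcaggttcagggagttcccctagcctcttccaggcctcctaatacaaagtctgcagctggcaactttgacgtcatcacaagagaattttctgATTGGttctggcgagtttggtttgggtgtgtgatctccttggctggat
H2-Eb1: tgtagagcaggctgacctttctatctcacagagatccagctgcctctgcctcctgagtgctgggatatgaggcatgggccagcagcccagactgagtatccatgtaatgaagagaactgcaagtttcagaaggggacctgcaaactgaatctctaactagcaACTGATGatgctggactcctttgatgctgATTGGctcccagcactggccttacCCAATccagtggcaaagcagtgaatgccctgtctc
H2-DMb1: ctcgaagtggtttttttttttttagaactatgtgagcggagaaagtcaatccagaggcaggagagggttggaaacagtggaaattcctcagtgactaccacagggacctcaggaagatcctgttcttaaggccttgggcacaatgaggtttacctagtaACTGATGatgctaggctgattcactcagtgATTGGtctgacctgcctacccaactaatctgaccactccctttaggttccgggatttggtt
H2-D1: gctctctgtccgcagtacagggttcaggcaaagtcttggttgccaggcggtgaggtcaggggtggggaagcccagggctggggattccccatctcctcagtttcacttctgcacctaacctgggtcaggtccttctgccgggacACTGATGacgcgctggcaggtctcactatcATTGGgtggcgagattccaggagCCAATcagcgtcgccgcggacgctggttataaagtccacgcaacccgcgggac
H2-Q10: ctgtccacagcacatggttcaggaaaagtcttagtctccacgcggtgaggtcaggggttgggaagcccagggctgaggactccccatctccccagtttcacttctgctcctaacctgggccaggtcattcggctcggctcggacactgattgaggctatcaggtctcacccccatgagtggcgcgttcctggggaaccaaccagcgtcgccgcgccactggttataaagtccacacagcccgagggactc
Counting from the start site, with -1 as the base before it, the X core of H2-Eb1 began at -88 and its Y box at -59, with 22 bases between them. In H2-DMb1 they began at -91 and -61 and in H2-D1 at -106 and -76, with 23 bases between in both. H2-Aa held a Y box at -48, and its single match to the X core, at -232, was on the other strand and not beside it. H2-Q10 held neither. RefSeq promoters were matched for 34 of the 48 gene names, 37 promoters in all. An X core followed on the same strand by a Y box, with 10 to 40 bases between, stood in 10 of the 37, against 70 of all 32851 promoters (0.213%). In 9 of the 10 the gap was 22 or 23 bases. The 10 were H2-Eb1, H2-Eb2, H2-DMb1, H2-DMb2, H2-D1, H2-Q4, H2-Q6, H2-Q7, H2-M3 and H2-M10.4, so the pair was present in class I promoters as well as class II promoters. Many of these genes are copies of each other and share sequence by descent. A Y box was in 33 of the 37 promoters, against 33.8% of all promoters, and an X core in 18, against 8.31%. Paired half-sites of the interferon response element, GAAA, 2 bases and GAAA on either strand, were found upstream of B2m, H2-T23 and H2-T22 among the members and in 2.98% of all promoters. Letters that match are a description and no measure of binding. A site that departs from these letters is missed, so a promoter without a match may still hold one.

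Levels are given as deposited, in FPKM, a unit that divides the fragments of a gene by its length and by the size of the library, so that genes can be compared. A log2 ratio here is log2 of Alb-Cre FPKM plus 1 over control FPKM plus 1. A gene was measured if the authors gave it the status OK and it reached 1 FPKM in at least 1 library, and it is called different where that log2 ratio was at least 1 in size, close to 2-fold. Of the 48 rows, 36 had the status OK and 29 were measured. Of 11406 measured genes in the whole table, 3.75% were called higher with Alb-Cre and 1.83% lower. The median of all their log2 ratios was -0.06. Of the genes called, 67.2% were higher, or 78.0% after centring on well-expressed genes, whose median log2 ratio was -0.13. The smallest values were taken to lie in steps of whole reads, which was not tested. On that assumption 1 FPKM in a transcript of 1 kb stood for about 134 reads in the Alb-Cre library. In the control library it stood for about 119. Akt1 had 17.1 FPKM in the Alb-Cre library and 23.7 in the control library, and Akt2 had 33.5 FPKM in Alb-Cre livers and 37.5 in control livers. Both values cover whole genes, whose deleted exons are not given in the sources used here, so they do not check the labels. In RNA from whole liver, more cells of a type and more RNA per cell cannot be told apart.

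**Figure D1:**
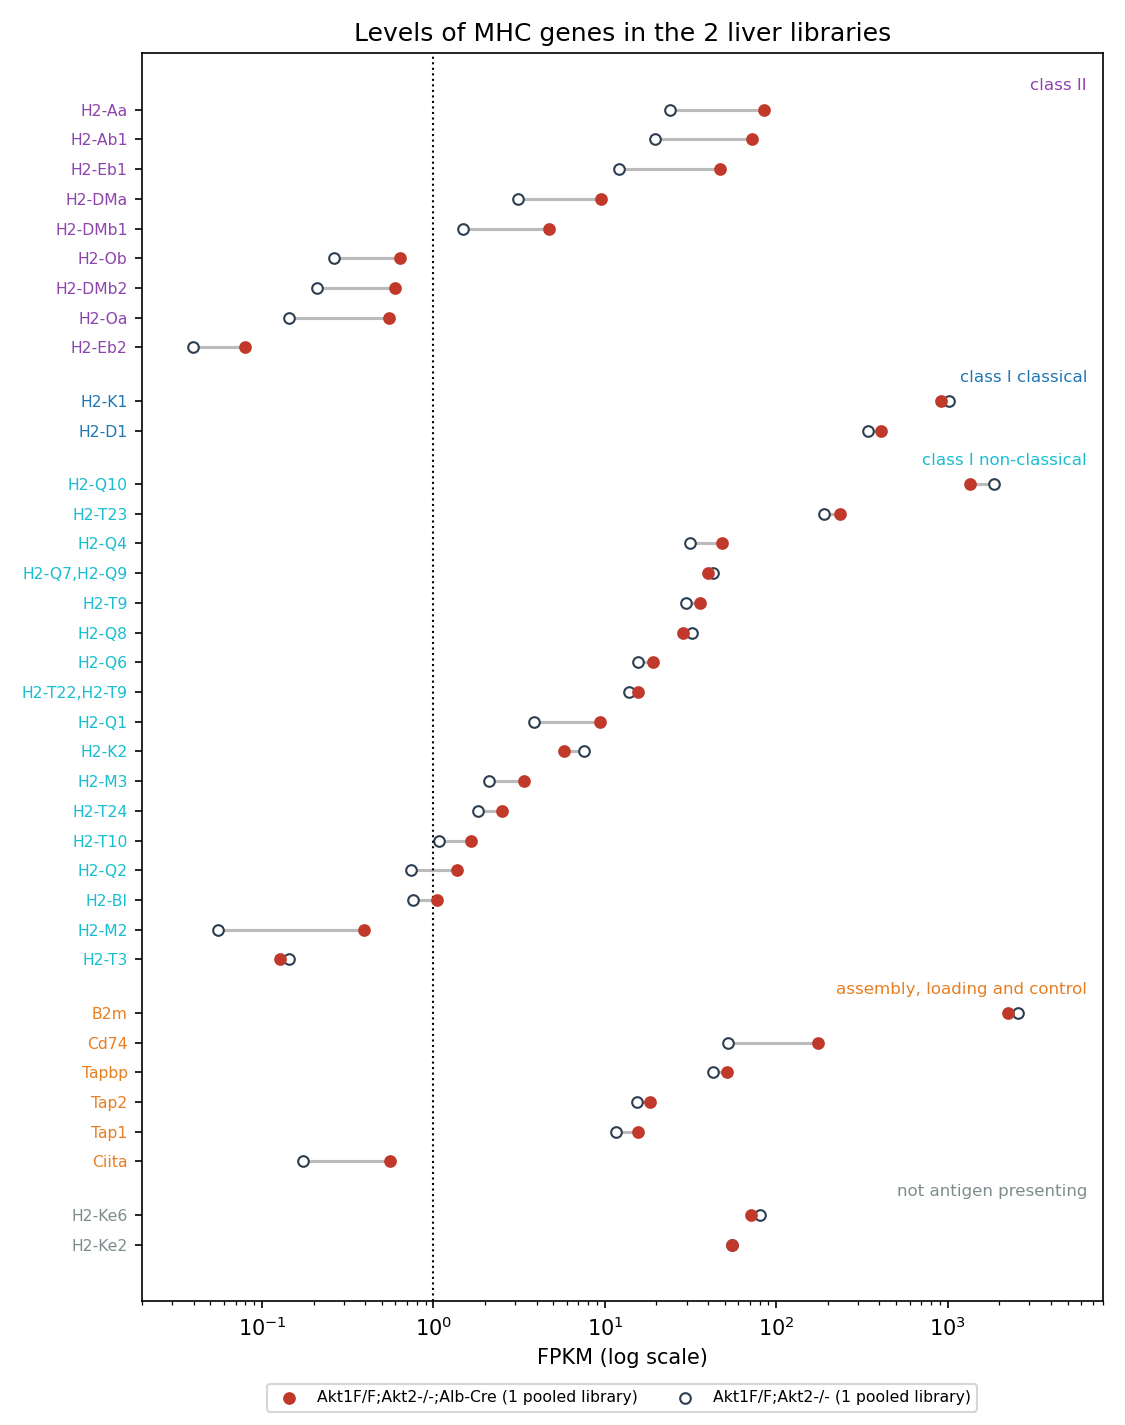
FPKM on a log axis for the 36 rows of status OK, with filled points for the Alb-Cre library, open points for the control library and a dotted line at 1 FPKM. Each point is 1 pooled library. All 9 class II rows have the filled point to the right, and so does Cd74, while most class I points nearly coincide.

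Class II RNA was more abundant in Alb-Cre livers, in every gene of the set that was measured. All 5 measured members were called higher and 0 lower, beside 3.75% and 1.83% of all measured genes, and all 5 also passed 1 FPKM in the control library. Their log2 ratios ran from 1.19 to 1.88 with a median of 1.78. H2-Aa, the alpha chain of the I-A molecule (mm10 chromosome 17, 34282744 to 34287823), had 84.8 FPKM in the Alb-Cre library and 24.0 in the control library, a log2 ratio of 1.78. H2-Ab1, its beta chain, had 71.7 FPKM in Alb-Cre livers and 19.7 in control livers (1.82). These chains of 1 molecule thus differed between the libraries by nearly the same factor, 3.53-fold for H2-Aa and 3.65-fold for H2-Ab1. H2-Eb1, the beta chain of the I-E molecule, had 47.1 FPKM in the Alb-Cre library and 12.1 in the control library, a log2 ratio of 1.88 and the highest of the members. Among the 11406 ratios, ranked from the highest, these genes held ranks 138 (H2-Eb1), 146 (H2-Ab1) and 151 (H2-Aa). In the authors' deposited table they were called different, each with a q-value of 0.0109, where 0.599% of rows of status OK were called higher and 0.074% lower. That q-value compares 2 libraries and not the genotypes.

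The alpha partner of H2-Eb1 was not seen. H2-Ea-ps, the I-E alpha gene, was listed at 0 FPKM in both libraries and not tested by the authors. Mice of the H2b haplotype, to which C57BL/6 belongs, are known to lack its promoter and to have no I-E at the cell surface. H2-Eb1 RNA was thus higher in Alb-Cre livers together with the I-A chains, with its alpha gene listed at 0.

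The genes that load class II molecules were also higher. H2-DMa and H2-DMb1 encode chains of H2-DM, which removes the Cd74 remnant from the groove and helps to exchange peptides. H2-DMa had 9.47 FPKM in the Alb-Cre library and 3.13 in the control library (log2 ratio 1.34). H2-DMb1 had 4.69 FPKM in Alb-Cre livers and 1.49 in control livers (1.19). The pseudocount lowers these ratios, and without it H2-DMa was 3.03-fold and H2-DMb1 3.15-fold higher. Neither was called in the authors' deposited table, with q-values of 0.930 for H2-DMa and 0.915 for H2-DMb1. Cd74, the invariant chain, had 175 FPKM in the Alb-Cre library and 52.2 in the control library (1.73), and was called in the authors' deposited table with a q-value of 0.0338.

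The remaining 4 class II genes of status OK were under 1 FPKM in both libraries and each was higher in the Alb-Cre library. H2-Oa and H2-Ob encode chains of H2-DO, which restrains H2-DM and is best known from B cells. H2-Oa had 0.548 FPKM in the Alb-Cre library and 0.144 in the control library, and H2-Ob had 0.639 FPKM in Alb-Cre livers and 0.261 in control livers. H2-DMb2, a further DM beta chain, had 0.594 FPKM in Alb-Cre livers and 0.210 in control livers. H2-Eb2, a little-expressed E beta gene, had 0.0793 FPKM in Alb-Cre livers and 0.0397 in control livers. Without a pseudocount the ratios were 3.81-fold for H2-Oa, 2.83-fold for H2-DMb2, 2.45-fold for H2-Ob and 2.00-fold for H2-Eb2. Reads estimated from the step size were about 91 for H2-Oa in Alb-Cre livers and 21 in control livers, and 36 for H2-Eb2 in Alb-Cre livers and 16 in control livers. Exact binomial 95% intervals on these estimates, which cover counting error only, ran from 2.37 to 6.51 for the ratio of H2-Oa and from 1.08 to 3.85 for that of H2-Eb2. Genes at such levels were often higher in the Alb-Cre library. Of 3431 rows of status OK under 1 FPKM in both libraries and above 0, 73.3% were higher and 28.4% were at least 2-fold higher. Ciita, the master regulator, was among the low genes, with 0.557 FPKM in the Alb-Cre library and 0.172 in the control library, a 3.23-fold difference without a pseudocount (interval 2.52 to 4.22).

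Within a library, ratios between class II genes do not depend on how the library was scaled. H2-Aa stood at 1.18 times H2-Ab1 in the Alb-Cre library and 1.22 times in the control library. H2-Eb1 stood at 0.656 times H2-Ab1 in Alb-Cre livers and 0.616 times in control livers. Cd74 stood at 2.44 times H2-Ab1 in Alb-Cre livers and 2.66 times in control livers. H2-DMb1 stood at 0.495 times H2-DMa in Alb-Cre livers and 0.475 times in control livers. These 4 ratios were the closest between the libraries. H2-DMa stood at 0.132 times H2-Ab1 in Alb-Cre livers and 0.159 times in control livers, and Ciita at 0.00776 times H2-Ab1 in Alb-Cre livers and 0.00877 times in control livers. The DO chains went opposite ways against H2-DMa, with H2-Oa at 0.0579 times in Alb-Cre livers and 0.0459 times in control livers, and H2-Ob at 0.0675 times in Alb-Cre livers and 0.0835 times in control livers. The factor between the libraries lay between 2.00-fold and 3.89-fold for the 9 class II rows without a pseudocount, 8 of which were at least 2-fold higher, beside 11.8% of all rows of status OK above 0. H2-Eb2 lay just under that limit. Summed over those rows, class II RNA was 220 FPKM in the Alb-Cre library and 61.1 in the control library.

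**Figure D2:**
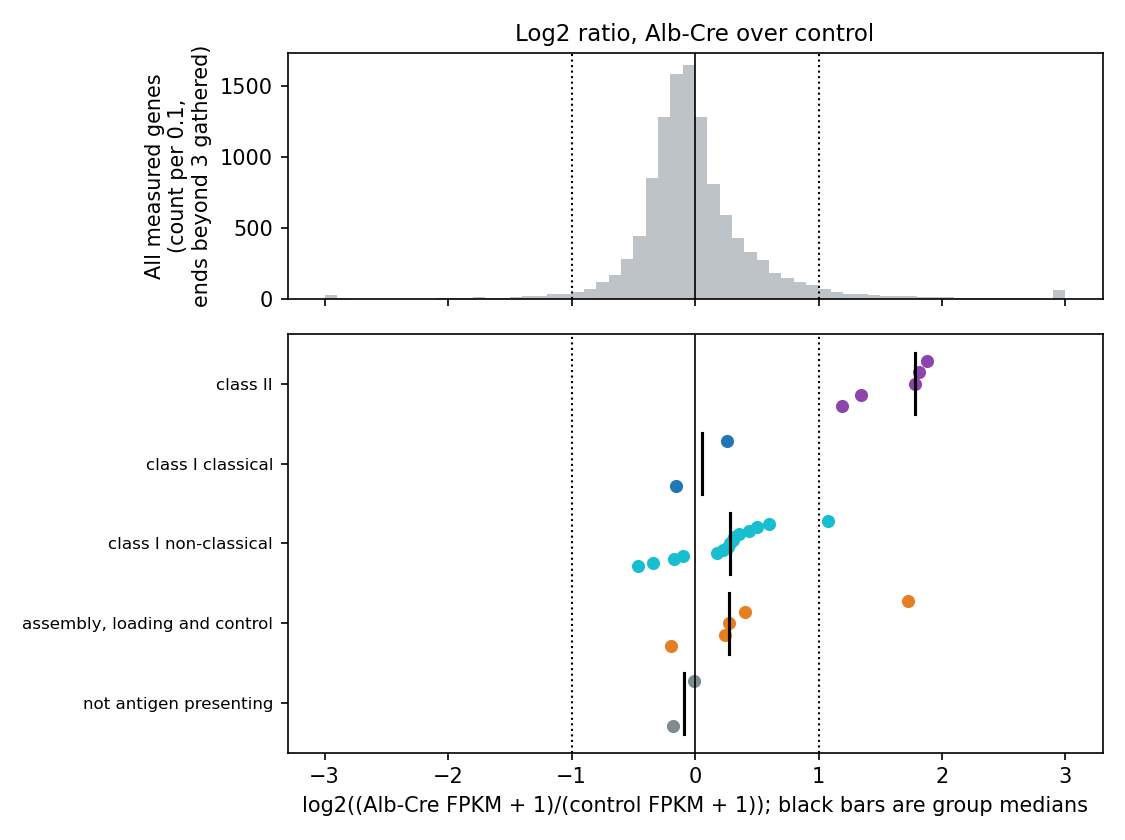
Log2 ratio of Alb-Cre over control, each library with 1 FPKM added. The upper panel is a histogram of all 11406 measured genes and the lower panel shows the 29 measured members by group, 1 point per row. Black bars are group medians and dotted lines mark the limits at 1 and -1. The class II points, from 1.19 to 1.88, lie right of the upper limit, and all but 1 of the class I points lie between the limits.

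The classical class I genes differed little. H2-K1 (chromosome 17, 33996017 to 34000347) and H2-D1 (35262730 to 35267499) encode the K and D molecules that present peptides to CD8 T cells. H2-K1 had 908 FPKM in the Alb-Cre library and 1012 in the control library, a log2 ratio of -0.16. H2-D1 had 409 FPKM in Alb-Cre livers and 341 in control livers (0.26). They went opposite ways, and 0 of 2 reached 2-fold, beside 3.75% of all measured genes called higher and 1.83% lower. H2-D1 stood at 0.450 times H2-K1 in the Alb-Cre library and 0.337 times in the control library. H2-K1 thus stood at 0.897 times its control level in the livers in which H2-Aa, in the same complex, was 3.53-fold higher.

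Among the non-classical class I genes the most abundant was H2-Q10, which encodes a soluble class I protein secreted by hepatocytes. H2-Q10 had 1351 FPKM in the Alb-Cre library and 1856.5 in the control library, a log2 ratio of -0.46, the lowest of the measured members. It made up 43.4% of all class I FPKM in the Alb-Cre library and 51.8% in the control library. H2-T23 encodes Qa-1, the ligand of an inhibitory receptor of NK cells, and had 235 FPKM in Alb-Cre livers and 189 in control livers (0.31). Together H2-Q10, H2-K1, H2-D1 and H2-T23 gave 93.2% of class I FPKM in the Alb-Cre library and 94.9% in the control library. Over the 19 class I rows of status OK, FPKM summed to 3116 in the Alb-Cre library and 3582 in the control library.

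H2-Q1 was the single class I gene called higher, 1 of 17 measured rows, beside 3.75% of all measured genes. It had 9.32 FPKM in the Alb-Cre library and 3.88 in the control library, a log2 ratio of 1.08 and rank 370 of 11406. The authors' deposited table gave it a q-value of 0.781 and no call. Next in size came H2-Q4, with 48.2 FPKM in the Alb-Cre library and 31.5 in the control library (0.60). H2-M3, which presents formylated bacterial peptides, had 3.39 FPKM in Alb-Cre livers and 2.097 in control livers (0.50). H2-Q2 had 1.36 FPKM in Alb-Cre livers and 0.741 in control livers (0.44) and so passed the minimum through the Alb-Cre library alone, as did H2-Bl with 1.05 FPKM in Alb-Cre livers and 0.757 in control livers (0.22). H2-T10, annotated as a polymorphic pseudogene, had 1.66 FPKM in the Alb-Cre library and 1.08 in the control library (0.36), and H2-T24 had 2.52 FPKM in Alb-Cre livers and 1.83 in control livers (0.31).

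The Qa-2 and T22 genes sat close to the control level. These have near-identical copies, and the deposited table splits or joins some of them. The joined row of H2-Q7 and H2-Q9, which are among the Qa-2 genes, had 39.9 FPKM in the Alb-Cre library and 42.7 in the control library (log2 ratio -0.09, or 0.04 after centring on well-expressed genes). A separate H2-Q9 row, which the authors marked as low in data, had 18.8 FPKM in Alb-Cre livers and 15.4 in control livers. It lies at a position where GENCODE vM21 places H2-Q7. H2-Q8 had 28.4 FPKM in the Alb-Cre library and 32.1 in the control library (-0.17), at a position where GENCODE vM21 places H2-Q5. H2-Q6 had 19.2 FPKM in Alb-Cre livers and 15.6 in control livers (0.28). H2-T9 had 36.0 FPKM in Alb-Cre livers and 29.8 in control livers (0.26), at a position where GENCODE vM21 places H2-T22. The joined row of H2-T22 and H2-T9, ligands of some gamma delta T cells in the case of T22, had 15.7 FPKM in Alb-Cre livers and 13.7 in control livers (0.18). H2-K2, annotated as a transcribed pseudogene, had 5.75 FPKM in the Alb-Cre library and 7.56 in the control library (-0.34).

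How far such copies can be told apart was read from windows of 50 bases in GENCODE transcripts, since the read length is not given in the sources used here. Of the windows of H2-T22, 34.5% also occurred in transcripts of another gene, chiefly H2-T10. The share was 32.0% for H2-Q6, 26.4% for H2-Q7, 21.8% for H2-Q4, 19.0% for H2-Q10, 15.0% for H2-Q1, 12.8% for H2-D1 and 9.63% for H2-K1. It was 13.6% for H2-T23, 3.17% for H2-T24, 0.894% for H2-T3 and 0.576% for H2-M3. Values of single class I genes with a large share are therefore uncertain. For H2-Ab1, H2-Eb1, H2-DMa and Cd74 the share was 0 and for H2-Aa it was 0.488%. H2-DMb1 and H2-DMb2 shared 22.7% and 24.8% of their windows, mostly with each other, so their separate values are uncertain too. H2-Ke6, named for H2 only, shared 70.5% with Gm20427.

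Over both class I groups, 1 of 17 measured rows was called higher and 0 lower, beside 3.75% and 1.83% of all measured genes. A count of 1 in 17 is near that background. The median log2 ratio was 0.26, beside -0.06 for all measured genes. Of the 17, 12 had a log2 ratio above 0, beside 41.2% of all measured genes. The background depends on the scaling. The figures were 12 of 17 beside 49.3% after rescaling both libraries to 1 common sum and 13 of 17 beside 60.7% with centring. Of the 15 that reached 1 FPKM in both libraries, 10 did, beside 38.1% of all genes with 1 FPKM in both. A further 2 class I rows of status OK were under 1 FPKM. H2-M2 had 0.391 FPKM in the Alb-Cre library and 0.0550 in the control library, about 75 reads in Alb-Cre livers and 9 in control livers. The difference was 7.10-fold without a pseudocount, with an interval of 3.69 to 16.8. Of all rows of status OK under 1 FPKM in both libraries and above 0, 28.4% were at least 2-fold higher. H2-T3, the thymus leukaemia antigen gene, had 0.126 FPKM in Alb-Cre livers and 0.144 in control livers. The other 11 class I rows did not have the status OK. Apart from H2-Q9 they were M-region genes at 0.0486 FPKM or less in either library, 7 of them listed at 0 in both.

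**Figure D3:**
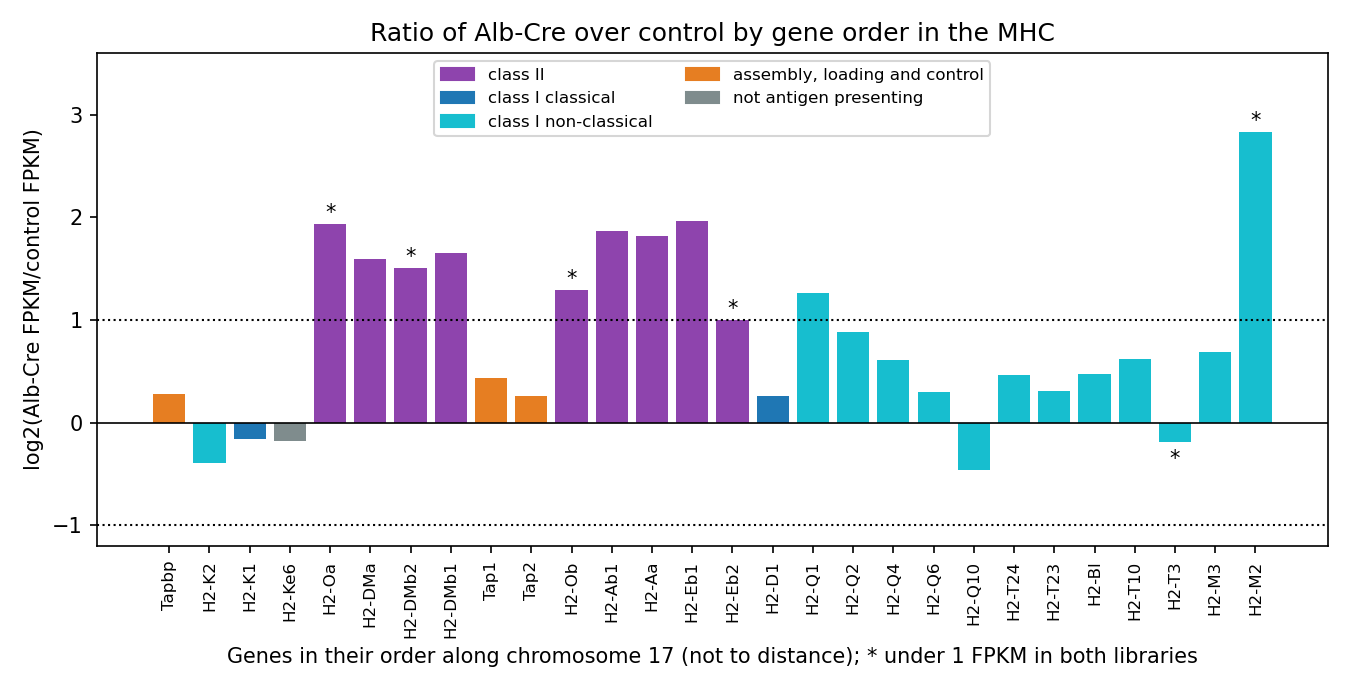
Log2 of Alb-Cre FPKM over control FPKM, with no pseudocount, for 28 rows of status OK that have a single name placed on chromosome 17 by GENCODE vM21, in their order along the chromosome and not to distance. Stars mark genes under 1 FPKM in both libraries and dotted lines mark 2-fold. The purple class II bars are high on both sides of Tap1 and Tap2, whose bars are short, and the H2-M2 bar is the tallest.

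The order of genes along the chromosome showed the contrast within a short stretch. Tap1 and Tap2, the subunits of the peptide transporter of class I, lie among the class II genes, between H2-DMb1 and H2-Ob. Tap1 had 15.6 FPKM in the Alb-Cre library and 11.6 in the control library (log2 ratio 0.40). Tap2 had 18.4 FPKM in Alb-Cre livers and 15.3 in control livers (0.25). The class II genes on either side of this pair were 3.15-fold (H2-DMb1) and 2.45-fold (H2-Ob) higher without a pseudocount, while Tap1 was 1.35-fold and Tap2 1.20-fold higher. H2-Ob was under 1 FPKM in both libraries. Of all rows of status OK at such levels and above 0, 28.4% were at least 2-fold higher. H2-DMb1 shared 22.7% of its windows of 50 bases with H2-DMb2. Tapbp, the tapasin that bridges TAP and class I, had 51.8 FPKM in the Alb-Cre library and 42.6 in the control library (0.28). B2m, on chromosome 2, had 2262 FPKM in Alb-Cre livers and 2588 in control livers (-0.19). Per class I FPKM, B2m stood at 0.726 in the Alb-Cre library and 0.722 in the control library. Of the 5 measured partner genes, Cd74 was the single one called higher and 0 lower, beside 3.75% and 1.83% of all measured genes.

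The 2 rows that only share the H2 name, H2-Ke6 (a steroid dehydrogenase gene, also called Hsd17b8) and H2-Ke2 (a prefoldin subunit gene, also called Pfdn6), lie beside the class I and class II genes. H2-Ke6 had 70.8 FPKM in the Alb-Cre library and 80.3 in the control library (log2 ratio -0.18). H2-Ke2 had 55.2 FPKM in Alb-Cre livers and 55.4 in control livers (-0.01, with the sign turned by rescaling or centring). Neither reached 2-fold.

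Of 14 other genes of the class I pathway, all measured, 0 were called higher and 0 lower, beside 3.75% and 1.83% of all measured genes, so the count is near that background. Of the 14, 7 had a log2 ratio above 0, beside 41.2%, and the median was 0.05. Psmb10, a catalytic subunit of the immunoproteasome, which cuts proteins into peptides for class I, had 63.0 FPKM in the Alb-Cre library and 40.9 in the control library (0.61). The other such subunits, Psmb8 with 53.1 FPKM in Alb-Cre livers and 37.7 in control livers (0.48) and Psmb9 with 48.9 FPKM in Alb-Cre livers and 36.3 in control livers (0.42), also had positive ratios. The chaperones of heavy chain folding were on the other side of 0, with Canx, calnexin, at 92.8 FPKM in the Alb-Cre library and 129.7 in the control library (-0.48). Calr stood at -0.43 and Pdia3 at -0.43. Irf2, a transcription factor that binds interferon response elements, had 21.2 FPKM in Alb-Cre livers and 30.5 in control livers (-0.51). Nlrc5, the coactivator of class I genes that parallels Ciita, had 5.33 FPKM in the Alb-Cre library and 4.11 in the control library (0.31).

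Of the other class II pathway genes, 14 of the 18 listed were measured, 1 was called higher and 0 lower, beside 3.75% and 1.83% of all measured genes, and their median was 0.17. A count of 1 in 14 is near that background. Of the 14, however, 12 had a log2 ratio above 0, beside 41.2% of all measured genes. Of the 13 that reached 1 FPKM in both libraries, 11 did, beside 38.1% of all genes with 1 FPKM in both. Ctss, cathepsin S, which trims the invariant chain, had 46.9 FPKM in the Alb-Cre library and 18.8 in the control library (log2 ratio 1.28). Lgmn, an endosomal protease, had 52.7 FPKM in Alb-Cre livers and 27.1 in control livers (0.94) and Ifi30, a reductase that opens disulphide bonds of antigens, had 24.7 FPKM in Alb-Cre livers and 14.5 in control livers (0.73). The subunits of a complex that binds the X box, Rfx5, Rfxap and Rfxank, lay between 0.09 and 0.18. Those of the factor that binds the Y box, Nfya, Nfyb and Nfyc, lay between -0.44 and 0.09. The costimulatory genes Cd80, Cd86 and Cd40 were low. Cd86 had 1.38 FPKM in the Alb-Cre library and 0.659 in the control library, Cd80 had 0.388 FPKM in Alb-Cre livers and 0.102 in control livers, and Cd40 had 0.621 FPKM in Alb-Cre livers and 0.236 in control livers.

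**Figure D4:**
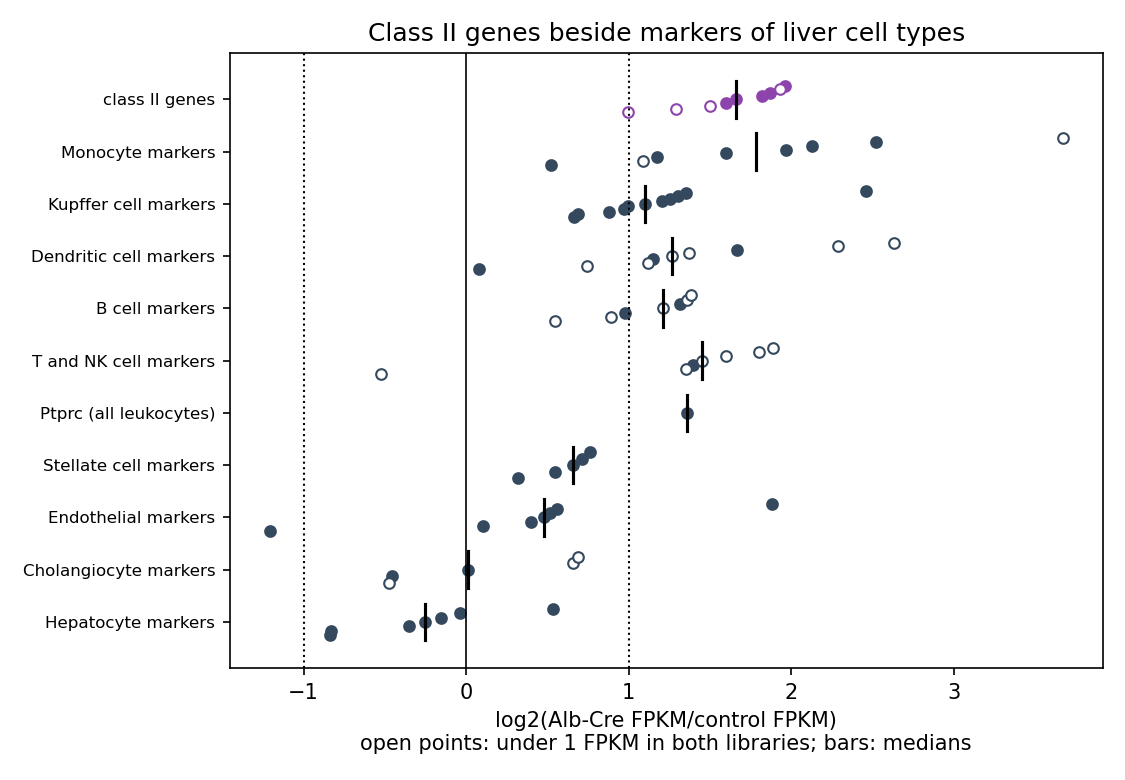
Log2 of Alb-Cre FPKM over control FPKM, with no pseudocount, for the 9 class II genes of status OK and for markers of liver cell types, 1 point per gene. Filled points reached 1 FPKM in at least 1 library and open points did not. Black bars are medians and dotted lines mark 2-fold. All leukocyte points but Cd4 sit to the right of 0 with the class II genes, and the medians of the cholangiocyte and hepatocyte markers are 0.01 and -0.25.

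Markers of leukocytes, among which are the cells that make most class II molecules, were also higher in Alb-Cre livers, and their part in the class II difference was not tested. Ptprc, which encodes the leukocyte antigen CD45, had 3.28 FPKM in the Alb-Cre library and 1.28 in the control library, 2.56-fold. All 11 matched Kupffer cell markers had a higher value in the Alb-Cre library, with a summed level of 404 FPKM in Alb-Cre livers and 177 in control livers, and so did all 8 matched monocyte markers (126 FPKM with Alb-Cre, 44.1 in control). All 9 dendritic cell markers were on that side too, at lower sums of 6.52 FPKM in the Alb-Cre library and 2.95 in the control library. Of the B cell markers all 7 of status OK were (5.11 FPKM with Alb-Cre, 2.34 in control), and of the T and NK cell markers 6 of 7 (4.21 FPKM with Alb-Cre, 1.97 in control). Of all measured genes, 41.2% were higher with Alb-Cre. Most dendritic, B and T cell markers were under 1 FPKM, a range in which 73.3% of all rows were higher with Alb-Cre. No marker in these lists was listed at 0 in either library. Most of the monocyte sum was Lyz2, a gene of monocytes and macrophages, at 84.4 FPKM with Alb-Cre and 27.8 in control.

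The summed markers of the other liver cells differed by smaller factors. All 5 stellate cell markers were higher in the Alb-Cre library (sums of 207 FPKM with Alb-Cre, 127 in control), as were 6 of 7 endothelial markers (105 FPKM with Alb-Cre, 76.9 in control). Single endothelial markers went far both ways. Lyve1, a hyaluronan receptor gene, had 4.11 FPKM in Alb-Cre livers and 1.11 in control livers (3.69-fold without a pseudocount), and Stab2, a scavenger receptor gene, had 0.980 FPKM in Alb-Cre livers and 2.27 in control livers (0.432-fold). Beside these counts, 41.2% of all measured genes were higher with Alb-Cre. Cholangiocyte markers summed to 33.8 FPKM in the Alb-Cre library and 33.7 in the control library, with 3 of 5 higher. Those higher were Krt19 and Krt7, under 1 FPKM in both libraries, and Spp1, at 1.01-fold. Of the 7 hepatocyte markers 1 was higher, and they summed to 10053 FPKM in the Alb-Cre library and 14211 in the control library. Few genes made up most of these sums. Dcn gave 155 FPKM of the stellate sum with Alb-Cre and 91.5 in control. Clec4g gave 65.6 FPKM of the endothelial sum with Alb-Cre and 47.0 in control. Spp1 had 30.5 FPKM with Alb-Cre and 30.3 in control. Among hepatocyte markers, Apoc3 had 3715 FPKM with Alb-Cre and 4742 in control, and Ttr had 3627 with Alb-Cre and 6489 in control.

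The sum of the 3 most abundant class II genes was 3.65-fold higher in Alb-Cre livers. Of 43 leukocyte markers of status OK, 8 differed by more, 4 of them among the 8 monocyte markers. Among those that differed by more, Itgax, Ccr7, Chi3l3 and Cd3d were under 1 FPKM in both libraries. Ccr2 and S100a4 were under 1 FPKM in the control library. The sum is set below against 7 single genes, chosen by their cell type and after values of the lists had been seen. H2-Aa, H2-Ab1 and H2-Eb1 summed to 62.2 times Ptprc in the Alb-Cre library and 43.7 times in the control library. It stood at 3.69 times Clec4f, a lectin gene of Kupffer cells, in Alb-Cre livers and 2.02 times in control livers. Against C1qa, a complement gene of macrophages, it stood at 3.17 times in Alb-Cre livers and 2.00 times in control livers, and against Csf1r, a growth factor receptor gene of macrophages, at 12.5 times in Alb-Cre livers and 6.70 times in control livers. Against Cd79b, a B cell receptor chain, it stood at 108 times in the Alb-Cre library and 73.4 times in the control library. Against Lyz2, the lysozyme gene of monocytes and macrophages, the ratios were closer, 2.41 in Alb-Cre livers and 2.00 in control livers. Against Itgax, the dendritic cell integrin CD11c, the sum stood at 329 times in the Alb-Cre library and 559 times in the control library, where Itgax was at 0.619 FPKM in Alb-Cre livers and 0.0999 in control livers. Among the markers that differed by more than the sum, Marco, a scavenger receptor gene of Kupffer cells, had 9.74 FPKM in Alb-Cre livers and 1.77 in control livers (5.50-fold without a pseudocount). Cd14, a monocyte receptor gene, had 6.55 FPKM in Alb-Cre livers and 1.14 in control livers (5.75-fold).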

How the data were processed

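RNA of perfused livers had been sequenced as 1 library per genotype, each from 4 pooled livers, per the labels and the series' design text. FastQC, TopHat2 2.0.8, Cuffdiff 2.1.1 and the build mm10 are named in the submitters' processing notes, with no role or order. The authors deposited FPKM per gene and library with their p-value and q-value, per the file headers. The sources used here give no settings, annotation, strandedness or totals of reads. With 1 library per group no p-value was computed.

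Ratios were log2 of FPKM plus 1, for rows of status OK with 1 FPKM or more in at least 1 library, called at a size of 1. The caller was checked on simulated data with large changes in well-expressed genes. That check does not cover changes near the limit or genes at low levels. Members and lists were chosen with earlier results of these data known. Every measured member is given, with the 3 largest ratios of each pathway list; other pathway and marker genes were named after their values were seen. March1 and March8 were not matched, and 25 gene names in the table read as dates. Reads were estimated from the median of FPKM times kilobases between 0.0055 and 0.0118 for genes with 1 GENCODE vM21 transcript, and from the median transcript length of each member, so they are approximate. No column of values was left unmatched. Python 3.11.15, pandas 2.3.3, numpy 2.4.6, scipy 1.17.1 and matplotlib 3.10.9 were used.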

Additional observations from a re-analysis of the deposited data

How the results depend on the processing

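The class II genes and Cd74 stayed higher, in direction, under each pseudocount, minimum, scaling and centring tried. None of these settings could have turned that direction. An equal pseudocount keeps the sign of a ratio and a minimum only selects rows. Rescaling and centring both raised the ratios of Alb-Cre over control. The count of class II genes called higher, 5 of 5, was 3 with a pseudocount of 5 FPKM, 3 by the authors' deposited call, 0 with a 4-fold limit and 8 of 9 with no pseudocount and no minimum, the last chosen after seeing the data. With a pseudocount of 5 FPKM the log2 ratio of H2-DMb1 was 0.58. The count of partner genes higher, 1 of 5, was 0 with a 4-fold limit and 2 of 6 with no pseudocount and no minimum, which adds Ciita. The count of non-classical class I genes higher, 1 of 15, was 0 with a pseudocount of 5 FPKM, with a 4-fold limit and by the authors' call, and 2 with a 1.5-fold limit or with no pseudocount and no minimum. For other class I pathway genes the count of 0 was 1 with a 1.5-fold limit. For other class II pathway genes the count of 1 was 2 with libraries rescaled or centred, 3 with a 1.5-fold limit, 4 with no pseudocount and no minimum, and 0 with a 4-fold limit or by the authors' call. Of all genes, the 3.75% higher became 6.74% and 1.56% with a pseudocount of 0.1 FPKM and of 5 FPKM, 8.87% and 1.03% with 1.5-fold and 4-fold limits, 0.658% of measured genes by the authors' call and 11.8% with no pseudocount and no minimum. The 1.83% lower became 5.80% and 0.395% with 1.5-fold and 4-fold limits and 0.0964% by the authors' call. Each limit moves its counts by construction, and the cause of the others was not tested. Of the other 186 counts, shares and medians, counts and shares stayed within 1.5 times, and medians moved by less than 1.5-fold as ratios. The median of class II genes came close to that limit, at 1.19 over 9 genes with no minimum in place of 1.78 over 5 genes. Small medians moved most for their size. On centring, the median of classical class I genes was 0.19 in place of 0.05, that of other class I pathway genes 0.18 in place of 0.05, that of other class II pathway genes 0.30 in place of 0.17, and that of all genes 0.07 in place of -0.06, with its sign turned. The median of non-classical class I genes was 0.14 in place of 0.28 with a pseudocount of 5 FPKM. No paired analysis was possible because each genotype has 1 library, and for the same reason no library could be left out.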

Other observations

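Class I-like genes outside the MHC, listed by name after the values of the members had been seen, are given here as values. Of 12, 7 were measured, with 0 higher and 0 lower, beside 3.75% and 1.83% of all measured genes. Of the 7, 2 had a log2 ratio above 0, beside 41.2%, and their median was -0.23. Cd1d1, which presents lipids to NKT cells, was lowest among these 7, with 67.1 FPKM in the Alb-Cre library and 119.9 in the control library (log2 ratio -0.83). Fcgrt, the neonatal Fc receptor that recycles antibody and albumin, had 106 FPKM in Alb-Cre livers and 124.7 in control livers (-0.23). Hfe, which takes part in iron sensing, had 27.6 FPKM in Alb-Cre livers and 32.6 in control livers (-0.23), and Mr1, which presents vitamin metabolites, had 2.62 FPKM in Alb-Cre livers and 3.67 in control livers (-0.36). Azgp1, a secreted class I-like glycoprotein gene, had 1163 FPKM in the Alb-Cre library and 1457 in the control library (-0.32). Raet1d and Raet1e, ligands of the NK cell receptor NKG2D, were on the other side of 0, at 18.3 FPKM in Alb-Cre livers and 16.4 in control livers (0.15) and at 8.54 FPKM in Alb-Cre livers and 7.04 in control livers (0.25). A further 3 of status OK were under 1 FPKM and more than 2-fold apart without a pseudocount. At such levels, above 0 in both libraries, 28.4% of all rows of status OK were at least 2-fold higher. Procr had 0.912 FPKM in Alb-Cre livers and 0.383 in control livers (2.38-fold), Ulbp1 had 0.112 FPKM in Alb-Cre livers and 0.0515 in control livers (2.18-fold), and Cd1d2 had 0.0228 FPKM in Alb-Cre livers and 0.186 in control livers (0.123-fold).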
